A study of Rattus norvegicus with 16 samples.

Results

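Growth hormone acts on the liver through a short chain of genes, and 10 of them were followed in the liver RNA of rats with and without sepsis under isoflurane or propofol anesthesia. They are the growth hormone receptor (Ghr), its transcription factor Stat5b, the feedback inhibitors Socs2 and Cish, the hormone Igf1, the circulating IGF carriers Igfals, Igfbp1 and Igfbp2, and the insulin receptor substrates Irs1 and Irs2. The genes were chosen by symbol, for their place in the axis, with earlier results of these data known. All 10 were present among the 17055 gene symbols of the counts. The animals were 48 male Sprague-Dawley rats aged 10 weeks, 12 in each of 4 groups, and each of the 16 libraries was made from a pool of 3 rats, so n = 4 libraries per group and the spread is one between pools. Isoflurane-Sepsis rats were induced and maintained with isoflurane and had cecal ligation and puncture, and isoflurane control rats had the same anesthetic and a celiotomy in which the cecum was taken out and put back. Propofol-Sepsis and propofol control rats had the same operations, but were induced with ketamine-xylazine and maintained with propofol. Livers were taken 8 h after the celiotomy, under general anesthesia throughout. The induction drug and the anesthetic cannot be told apart, and the deposited identifiers of the isoflurane and propofol samples also carry different prefixes, whose meaning is not given in the sources used here.

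Growth hormone binds its receptor on hepatocytes and activates the kinase JAK2, which phosphorylates STAT5B. STAT5B then switches on Igf1, Igfals, Socs2 and Cish, and the SOCS proteins shut the signal off. Most circulating IGF-1 is held in a complex with IGFBP-3 and the acid-labile subunit that Igfals encodes, whereas IGFBP-1 is a fast-changing carrier that insulin represses and that rises in fasting, low oxygen and stress. IRS-1 and IRS-2 dock signaling proteins to the insulin and IGF-1 receptors, and Irs2 in liver is repressed by insulin. In critical illness, growth hormone is high while IGF-1 is low in blood, a state called growth hormone resistance.

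Between 14199422 and 49937173 reads were counted on genes per library. Levels are given as CPM, the count scaled to a common total of reads on genes, after TMM scaling, which corrects for differences in library composition. The 8 hepatocyte markers examined were found in every library. Their sum ranged from 146545 to 157987 CPM in isoflurane control and from 122632 to 133974 in Isoflurane-Sepsis. It ranged from 110144 to 123088 CPM in propofol control and from 100078 to 110165 in Propofol-Sepsis. The 9 neutrophil and monocyte markers summed to between 21.8 and 24.5 CPM in isoflurane control, 44.7 and 129.9 in Isoflurane-Sepsis, 25.4 and 34.7 in propofol control, and 45.7 and 61.6 in Propofol-Sepsis, and no marker of these lists was at 0 over a whole group. The 7 lymphocyte markers found summed to between 1.17 and 4.24 CPM. In such bulk tissue, fewer cells of a type and less RNA per cell cannot be told apart.

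The axis split into genes that hardly moved and genes that moved a great deal. Between the group with the highest mean level and that with the lowest, Igfbp1 differed 17.4-fold, Irs2 8.94-fold and Igfals 7.16-fold. Igfbp2, Irs1, Cish and Socs2 differed 3.58-fold, 3.10-fold, 2.98-fold and 2.73-fold. Igf1, Ghr and Stat5b, the hormone, the receptor and the transcription factor at the center of the axis, differed 1.24-fold, 1.16-fold and 1.15-fold.

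**Figure D1:**
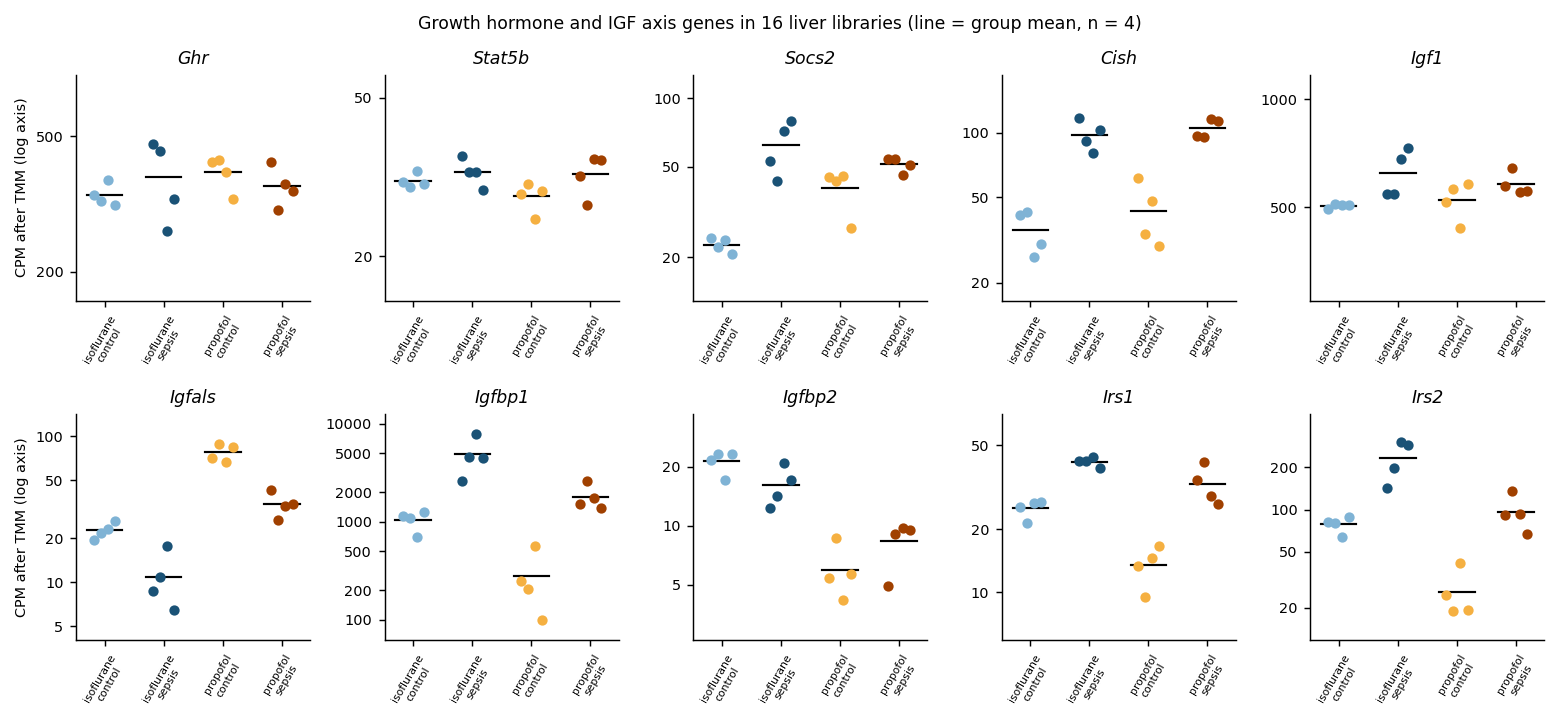
Level of each of the 10 genes in CPM after TMM scaling (log axis, a separate scale for each gene), with 1 point per library and a line at the mean of the 4 libraries of a group. Igfals was highest in propofol control and lowest in Isoflurane-Sepsis with no overlap between any neighboring groups, Igfbp1 and Irs2 were lowest in propofol control, and the groups of Ghr and Stat5b lay over each other.

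To ask what sepsis did to the axis, septic and control livers under the same anesthetic were set against each other with edgeR's quasi-likelihood test, with p-values adjusted over all genes tested by the method of Benjamini and Hochberg, and a gene was called at an adjusted p below 0.05. Under isoflurane 7 of the 10 genes were called, against 50.0% of the 10361 genes tested, and under propofol 5 were called, against 42.1% of 10348. Under isoflurane 6 genes rose (Socs2, Cish, Igf1, Igfbp1, Irs1 and Irs2), where 25.7% of all genes did, and 1 fell (Igfals), where 24.4% did. Under propofol 4 rose (Cish, Igfbp1, Irs1 and Irs2), where 20.4% of all genes did, and 1 fell, again Igfals, where 21.7% did. The median absolute log2 difference of the 10 genes was 0.90 under isoflurane, beside 0.36 over all genes tested, and 0.84 under propofol, beside 0.27. The sepsis and control libraries did not overlap for 7 of the 10 genes under isoflurane, where this held for 48.8% of all genes, and for 6 under propofol, where it held for 41.6%.

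**Figure D2:**
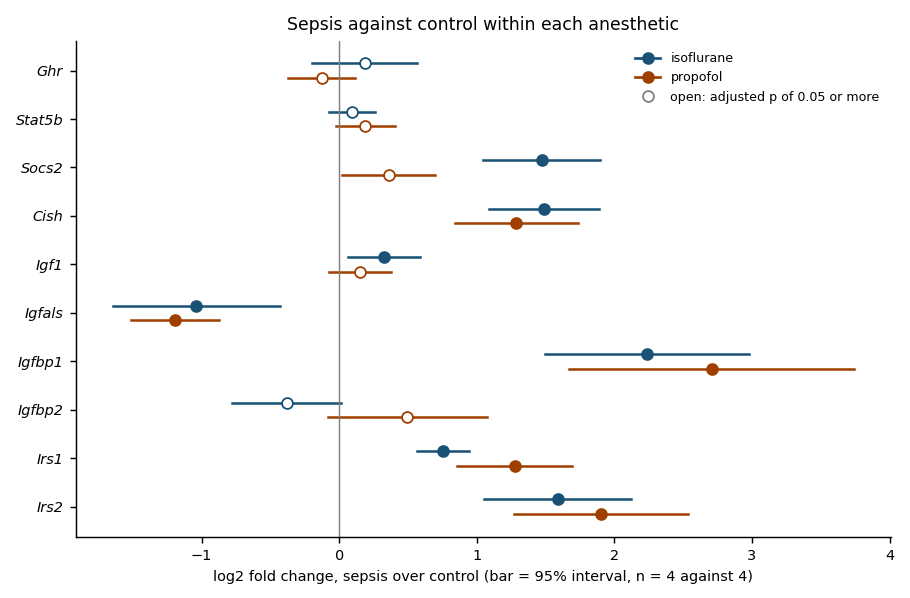
Log2 fold change of sepsis over control for the 10 genes within isoflurane and within propofol, with 95% intervals from the edgeR fit (4 libraries against 4) and open symbols where the adjusted p was 0.05 or more. Igfbp1, Irs1, Irs2 and Cish lay above 0 and Igfals below 0 under both anesthetics, and the intervals of Socs2 in the 2 anesthetics did not meet.

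The RNA of the receptor and of STAT5B gave no call in either anesthetic. Ghr, which binds growth hormone at the cell surface, stood at 475, 454, 263 and 328 CPM in the Isoflurane-Sepsis libraries and at 337, 324, 373 and 314 in isoflurane control. Its levels were 419.5, 304, 362 and 347 CPM in Propofol-Sepsis and 422, 425, 393 and 327 in propofol control. The Isoflurane-Sepsis libraries thus lay on both sides of their controls, with a pair above all of them and 1 below all of them. The log2 difference of Ghr was 0.19 under isoflurane, with a 95% interval of -0.19 to 0.57 (edgeR, adjusted p = 0.384), and -0.13 under propofol, with an interval of -0.37 to 0.11 (edgeR, adjusted p = 0.363). Stat5b, the main transcription factor of the pathway, ranged from 29.3 to 35.7 CPM in Isoflurane-Sepsis, 29.8 to 32.7 in isoflurane control, 26.9 to 35.1 in Propofol-Sepsis and 24.7 to 30.4 in propofol control. Its log2 difference was 0.09 under isoflurane, with an interval of -0.07 to 0.26, and 0.19 under propofol, with an interval of -0.02 to 0.40, so that a change beyond these bounds was not seen in either. Without library 10 the propofol difference was called at 0.26 (edgeR, adjusted p = 0.0300). Stat5a, a related gene outside the 10, fell by 0.56 on the log2 scale under isoflurane (edgeR, adjusted p = 0.00251). Under propofol Stat5a was at -0.11, without a call (edgeR, adjusted p = 0.542). Stat5a was named after its values were seen.

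Cish rose under both anesthetics. It encodes CIS, a SOCS family protein that STAT5 induces and that binds the activated receptor. Cish stood at 117, 92.0, 80.2 and 103 CPM in Isoflurane-Sepsis and at 41.6, 42.7, 26.4 and 30.4 in isoflurane control. It stood at 96.6, 95.3, 116 and 113 CPM in Propofol-Sepsis and at 61.7, 33.9, 48.1 and 29.6 in propofol control. Every sepsis library was above every control library, whichever the anesthetic. The rise was 1.49 on the log2 scale under isoflurane (2.81-fold, SE 0.177, edgeR adjusted p = 0.000300) and 1.29 under propofol (2.44-fold, SE 0.199, edgeR adjusted p = 0.000835). Neither call was lost under any alternative processing or with any library left out.

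The promoter of Cish is printed here because it carries a dense group of the letters that STAT5 is known to bind. The sequence is RefSeq's for rat, the 250 bases before the gene start at chr8:116850719-116850968 of GRCr8, plus strand, 5′ to 3′, with the matches to TTCNNNGAA and to the FOXO motif CAAAACA in capitals.
Cish: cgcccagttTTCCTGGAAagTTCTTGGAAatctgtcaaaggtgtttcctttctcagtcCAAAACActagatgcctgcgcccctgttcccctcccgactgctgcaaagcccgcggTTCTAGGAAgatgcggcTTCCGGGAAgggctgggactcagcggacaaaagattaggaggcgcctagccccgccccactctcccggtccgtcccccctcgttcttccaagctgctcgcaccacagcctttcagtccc
The 4 matches to TTCNNNGAA are TTCCTGGAA, TTCTTGGAA, TTCTAGGAA and TTCCGGGAA, and their first bases lie at -241, -230, -136 and -119 from the gene start. The motif reads the same on both strands. At least 1 match was held by 8.68% of the 27457 promoters in the RefSeq table (300 bases each, 250 before and 50 after the start), and 4 or more by 2 of them. Promoters were given for 8 of the 10 genes, not for Socs2 and Irs2. No other of these 8 windows held a match. A match is a description of the letters and says nothing of whether the factor was bound.

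Socs2 rose under isoflurane, and its response differed between the anesthetics. SOCS2 is the inhibitor whose loss gives oversized mice, and it too is a STAT5 target. Socs2 stood at 53.1, 43.3, 71.9 and 79.3 CPM in Isoflurane-Sepsis and at 24.3, 22.04, 23.8 and 20.6 in isoflurane control, which gave a log2 rise of 1.47 (2.77-fold, SE 0.188, edgeR adjusted p = 0.000418). It stood at 53.8, 54.1, 45.9 and 51.0 CPM in Propofol-Sepsis and at 44.9, 43.1, 45.4 and 26.9 in propofol control. These groups did not overlap either, but the highest control was within 1 CPM of the lowest sepsis library, and the log2 difference of 0.36 was not called (SE 0.151, edgeR adjusted p = 0.0810). The interaction test in all 16 libraries put the isoflurane response above the propofol response by 1.10 on the log2 scale (SE 0.255, 95% interval 0.56 to 1.65, edgeR adjusted p = 0.0385). This was the only 1 of the 10 genes called in that test, in which 2.72% of 10621 genes were called, 1.66% of all genes with a higher response under isoflurane. That count of 289 genes was itself unsteady, at 54 without library 12, 60 without library 6 and 1615 without library 1. Isoflurane control had the lowest mean of all 4 groups, 22.7 ± 1.71 CPM (SD, n = 4), and propofol control had 40.1 ± 8.87, while the sepsis groups overlapped each other. The call of the interaction was lost with limma-voom (adjusted p = 0.0538) and when any 1 of libraries 3, 5 to 9 or 11 to 15 was left out, with a log2 difference between 0.95 and 1.25 and an adjusted p of up to 0.0823 over all 16 omissions. Neutrophil and monocyte markers were also higher in sepsis. Their sum was 44.7, 85.0, 129.9 and 111 CPM in the 4 Isoflurane-Sepsis libraries in the order given for Socs2. The library with the lowest sum was thus not the one with the lowest Socs2. Of the tested markers 6 of 8 rose under isoflurane, where 25.7% of all genes did, and 4 of 9 under propofol, where 20.4% did. The part of these cells in the Socs2 result was not tested.

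Igf1, the hormone itself, moved little. It stood at 542, 543, 679.8 and 733 CPM in Isoflurane-Sepsis and at 493, 509, 508 and 507 in isoflurane control. It stood at 574, 643, 549 and 556 CPM in Propofol-Sepsis and at 517, 561, 438 and 580.3 in propofol control. Under isoflurane the sepsis libraries were all above the controls, which lay within 16 CPM of each other, and under propofol the groups overlapped. The log2 difference was 0.33 under isoflurane (1.26-fold, SE 0.116, edgeR adjusted p = 0.0405) and 0.15 under propofol (SE 0.101, 95% interval -0.07 to 0.38, edgeR adjusted p = 0.249). The isoflurane call was a marginal one. It was lost at an adjusted p below 0.01, with library totals alone (adjusted p = 0.0776), without a limit on low counts (adjusted p = 0.0581) and when library 3, 4, 5, 6, 7 or 8 was left out (adjusted p up to 0.0943), always with a log2 difference of 0.24 or more. A fall in Igf1 RNA was thus not seen in either anesthetic, and the lower bound of the 95% interval was 0.07 under isoflurane. The Igf1 promoter window held CAAAACA once, with its first base at -67, and no TTCNNNGAA.

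Igfals fell by more than Igf1 moved. It encodes the acid-labile subunit, which liver makes under growth hormone and which keeps IGF-1 in the blood. Igfals stood at 8.72, 10.8, 17.6 and 6.42 CPM in Isoflurane-Sepsis and at 19.3, 21.8, 23.3 and 26.3 in isoflurane control. It stood at 42.9, 26.5, 33.1 and 34.2 CPM in Propofol-Sepsis and at 71.3, 89.2, 66.4 and 85.2 in propofol control. In both anesthetics every sepsis library was below every control library, and the lowest Propofol-Sepsis library was just above the highest isoflurane control. Igfals in sepsis was at 48.7% of control under isoflurane, a log2 difference of -1.04 (SE 0.268, edgeR adjusted p = 0.0114), and at 43.8% under propofol, a log2 difference of -1.19 (SE 0.143, edgeR adjusted p = 0.000239). The responses differed by 0.14, with a 95% interval of -0.52 to 0.79 (edgeR interaction, adjusted p = 0.811).

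Igfbp1 had the largest rise of the 10 genes in both anesthetics. Igfbp1 stood at 2594, 4546, 7915 and 4453 CPM in Isoflurane-Sepsis and at 1157, 1089.6, 701 and 1262 in isoflurane control. It stood at 1529, 2598, 1738 and 1373 CPM in Propofol-Sepsis and at 247, 205, 566 and 99.4 in propofol control. The sepsis libraries were above their controls without overlap in each anesthetic, and the level in the highest library was 79.7 times that in the lowest. The rise was 4.71-fold under isoflurane, 2.24 on the log2 scale (SE 0.329, edgeR adjusted p = 0.000801), and 6.53-fold under propofol, 2.71 on the log2 scale (SE 0.463, edgeR adjusted p = 0.00144). Both calls held under all alternatives run, but the size of the propofol rise varied with the library left out. It ran from 2.43 to 3.30 on the log2 scale, and was largest without library 15, the highest of the propofol controls. The difference between the responses was -0.49 and was not called (edgeR interaction, adjusted p = 0.630). Its 95% interval was wide, -1.74 to 0.77, and a difference within these bounds was not excluded. Without library 15 the difference was -1.09 (edgeR interaction, adjusted p = 0.237).

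The Igfbp1 promoter is shown because the insulin and FOXO elements known from this gene lie close to its start. It is RefSeq's rat sequence of the 250 bases before the start, chr14:86261027-86261276 of GRCr8, plus strand, 5′ to 3′, with CAAAACA and the HNF1 half-site GTTAAT (here on the minus strand, read as ATTAAC) in capitals.
Igfbp1: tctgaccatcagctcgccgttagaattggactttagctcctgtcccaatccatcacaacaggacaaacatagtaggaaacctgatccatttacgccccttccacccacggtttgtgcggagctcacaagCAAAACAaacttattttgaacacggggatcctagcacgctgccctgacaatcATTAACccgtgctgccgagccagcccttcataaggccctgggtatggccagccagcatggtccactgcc
CAAAACA has its first base at -121 and ATTAAC at -69. Searched on both strands, CAAAACA was held by 6.2% of the 27457 promoters, the other FOXO motif GTAAACA by 3.76% and GTTAAT by 7.37%. Among the 8 genes with a promoter, Cish and Igf1 held CAAAACA as well, none held GTAAACA, and Igfbp1 alone held GTTAAT. The windows of Ghr, Stat5b, Igfals, Igfbp2 and Irs1 held none of these motifs.

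**Figure D3:**
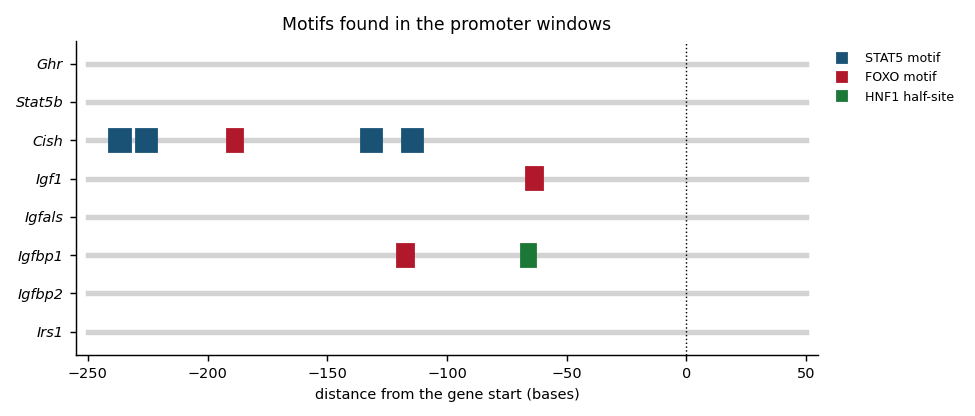
Positions of the motif matches in the promoter windows of the 8 genes with a RefSeq promoter, as distance from the gene start in bases (blue, TTCNNNGAA of STAT5; red, CAAAACA of FOXO; green, HNF1 half-site). Cish held 4 STAT5 matches and 1 FOXO match, Igfbp1 a FOXO match and an HNF1 half-site, Igf1 a FOXO match, and the other windows none.

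Igfbp2, a carrier that liver makes more of in fasting and low insulin, was not called in sepsis under either anesthetic, and its estimates had opposite signs. Igfbp2 stood at 12.4, 14.3, 21 and 17.1 CPM in Isoflurane-Sepsis and at 21.6, 23.3, 17.2 and 23.4 in isoflurane control. It stood at 4.94, 9.10, 9.80 and 9.52 CPM in Propofol-Sepsis and at 5.38, 8.64, 4.17 and 5.65 in propofol control. Sepsis and control overlapped in both pairs. The log2 difference was -0.38 under isoflurane (SE 0.175, edgeR adjusted p = 0.0989) and 0.50 under propofol (SE 0.259, edgeR adjusted p = 0.149), and the responses differed by -0.89 (95% interval -1.59 to -0.20, edgeR interaction, adjusted p = 0.123). Without library 3 the isoflurane difference was called at -0.54 (edgeR, adjusted p = 0.0197), and without library 9 or 14 the propofol difference was called at 0.67 or 0.73 (edgeR, adjusted p = 0.0377 and 0.0479).

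Both insulin receptor substrates rose under both anesthetics. Irs1 stood at 41.8, 42.3, 44.0 and 38.9 CPM in Isoflurane-Sepsis and at 25.3, 21.5, 26.7 and 26.8 in isoflurane control. It stood at 34, 41.5, 28.7 and 26.3 CPM in Propofol-Sepsis and at 13.3, 9.51, 14.5 and 16.5 in propofol control. The groups did not overlap within either anesthetic, and propofol control was below all other groups. The rise of Irs1 was 0.75 on the log2 scale under isoflurane (1.69-fold, SE 0.0849, edgeR adjusted p = 0.000232) and 1.28 under propofol (2.42-fold, SE 0.187, edgeR adjusted p = 0.000621). The responses (isoflurane minus propofol) differed by -0.53 on the log2 scale, with a 95% interval of -0.99 to -0.07, which did not pass the adjustment over all genes (edgeR interaction, adjusted p = 0.160).

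Irs2, which carries insulin signaling in liver during fasting, stood at 143, 197, 301 and 288 CPM in Isoflurane-Sepsis and at 82.0, 80.6, 63.2 and 87.9 in isoflurane control. It stood at 91.7, 135, 93.1 and 67.1 CPM in Propofol-Sepsis and at 24.6, 18.8, 41.4 and 19.2 in propofol control. Sepsis was above control without overlap in each anesthetic, and the Propofol-Sepsis libraries overlapped those of isoflurane control. The rise was 3.01-fold under isoflurane, 1.59 on the log2 scale (SE 0.236, edgeR adjusted p = 0.000844), and 3.73-fold under propofol, 1.90 on the log2 scale (SE 0.283, edgeR adjusted p = 0.000677). The responses differed by -0.33 (95% interval -1.16 to 0.51, edgeR interaction, adjusted p = 0.626).

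Control livers differed between the anesthetics in most of these genes. Between the control groups 6 of the 10 genes were called, against 43.3% of the 10314 genes tested, and the same number did not overlap, against 40.3%. The median absolute log2 difference of the 10 genes was 0.86, beside 0.22 over all genes tested. Higher under isoflurane were 4 genes (Igfbp1, Igfbp2, Irs1 and Irs2), beside 21.6% of all genes, and lower were 2 (Igfals and Socs2), beside 21.7%. These comparisons use the control libraries of the sepsis comparisons again and are therefore not independent of them.

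**Figure D4:**
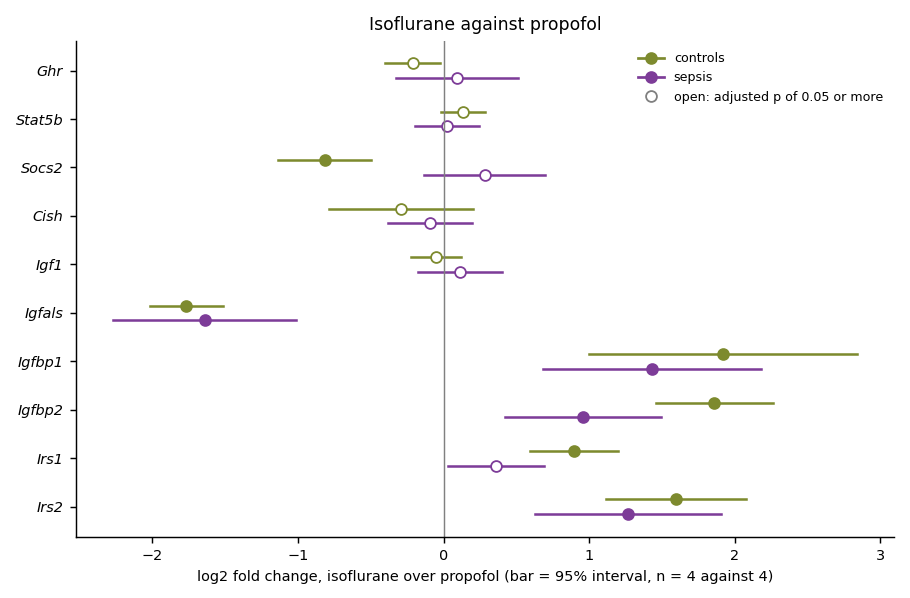
Log2 fold change of isoflurane over propofol for the 10 genes in control and in septic liver, with 95% intervals from the edgeR fit (4 libraries against 4) and open symbols where the adjusted p was 0.05 or more. In both conditions Igfals lay below 0, and Igfbp1, Igfbp2 and Irs2 above 0.

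Among the carriers, Igfals in isoflurane control was at 29.4% of its level in propofol control, a log2 difference of -1.77 (SE 0.113, edgeR adjusted p = 4.05e-06), and it ranked 23 by p among all 10314 genes. Igfbp2 was 3.63-fold higher under isoflurane, 1.86 on the log2 scale (SE 0.182, edgeR adjusted p = 3.54e-05). Igfbp1 was 3.78-fold higher, 1.92 on the log2 scale (SE 0.418, edgeR adjusted p = 0.00406), and 2.52 on the log2 scale without library 15. Isoflurane control thus had less Igfals RNA and more Igfbp1 and Igfbp2 RNA than propofol control. Igfbp3, another carrier, was at 86.0 ± 6.79 CPM in isoflurane control and 70.8 ± 13.8 in propofol control (SD, n = 4). The part of growth hormone or insulin in these differences was not tested. Irs2 was 3.02-fold higher under isoflurane, 1.596 on the log2 scale (SE 0.219, edgeR adjusted p = 0.000267), and Irs1 1.86-fold higher, 0.90 on the log2 scale (SE 0.136, edgeR adjusted p = 0.000495). Socs2 in isoflurane control was at 56.8% of its level in propofol control, a log2 difference of -0.82 (SE 0.145, edgeR adjusted p = 0.00126). All 6 calls held under every alternative and with every library left out. Cish, the other feedback inhibitor, overlapped between the control groups, with a log2 difference of -0.29 (SE 0.224, edgeR adjusted p = 0.317). Igf1 differed by -0.05, with a 95% interval of -0.22 to 0.12, and Stat5b by 0.13, with an interval of -0.02 to 0.29. Ghr differed by -0.21 (SE 0.0863, edgeR adjusted p = 0.0684), and this difference was called with library totals alone (-0.36), without library 7 (-0.26) and without library 16 (-0.30).

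In septic liver 4 of the 10 genes differed between the anesthetics, against 19.3% of the 10272 genes tested, and 3 did not overlap, against 25.1%. Of the 4, 3 were higher under isoflurane (10.6% of all genes) and 1 was lower (8.66%). The median absolute log2 difference of the 10 genes was 0.32, beside 0.27 over all genes tested. Igfals under isoflurane was at 32.1% of its level under propofol, a log2 difference of -1.64 (SE 0.279, edgeR adjusted p = 0.0118). Irs2 was 2.41-fold higher under isoflurane (SE 0.282 on the log2 scale, edgeR adjusted p = 0.0217) and Igfbp2 1.94-fold higher (SE 0.236, edgeR adjusted p = 0.0276). Igfbp1 was 2.69-fold higher (SE 0.331, edgeR adjusted p = 0.0235), although the highest Propofol-Sepsis library, at 2598 CPM, lay just above the lowest Isoflurane-Sepsis library, at 2594. Igfals stayed called whichever library was left out, but Igfbp1, Igfbp2 and Irs2 did not, and the number of genes called fell to 3 without library 4, to 2 without library 3 and to 1 without library 9, 11 or 12. Over all genes the count fell too, from 1982 to 1253 without library 2, 842 without library 3, 314 without library 11, 289 without library 9 and fewer still without library 12. It rose to 2867 without library 1 and to 2327 without library 10. Without library 10 Irs1 was called too, at 0.52 on the log2 scale (edgeR, adjusted p = 0.0178), where it was at 0.36 without a call in all 8. Socs2 differed by 0.28, with a 95% interval of -0.13 to 0.70, and Cish by -0.09, with an interval of -0.38 to 0.19.

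Put in order of mean level, the 4 groups fell into a different sequence for each carrier. Igfals ran from propofol control (78.0 ± 10.9 CPM, SD, n = 4) through Propofol-Sepsis (34.2 ± 6.73) and isoflurane control (22.7 ± 2.92) to Isoflurane-Sepsis (10.9 ± 4.84), with no overlap between any neighbors. Igfbp1 ran from Isoflurane-Sepsis (4877 ± 2216 CPM) through Propofol-Sepsis (1810.0 ± 546) and isoflurane control (1052 ± 245) to propofol control (279.5 ± 201), and only the sepsis groups overlapped. Igfbp2 fell into a pair of isoflurane groups (21.4 ± 2.90 CPM in control, 16.2 ± 3.74 in sepsis) above a pair of propofol groups (8.34 ± 2.29 in sepsis, 5.96 ± 1.90 in control), with overlap within the pairs and none between them. For Irs2 the middle groups, Propofol-Sepsis (96.7 ± 28.2 CPM) and isoflurane control (78.4 ± 10.6), overlapped, while Isoflurane-Sepsis (232 ± 75.2) lay above and propofol control (25.98 ± 10.6) below them.

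Other genes of the axis were counted in 6 lists of growth hormone, IGF and insulin genes, which share a few members with each other. The ligands, carriers, receptors and proteases of IGF gave 2 rises and 2 falls among 9 tested genes under isoflurane, with a median log2 difference of -0.04 beside 0.01 over all genes, and 2 rises and 2 falls among 8 under propofol, with a median of -0.10 beside -0.0016. These medians of all genes, and the 50.0% and 42.1% of all genes called, stand beside each of the lists that follow. Igfbp3, the main carrier of IGF-1 in blood, fell from 86.0 ± 6.79 to 45.5 ± 3.49 CPM under isoflurane (SD, n = 4, log2 difference -0.90, edgeR adjusted p = 8.80e-05). Under propofol Igfbp3 went from 70.8 ± 13.8 to 44.4 ± 12.1 CPM (log2 difference -0.67, edgeR adjusted p = 0.0203). The propofol call was lost without library 9, 14 or 16 (edgeR, adjusted p up to 0.0621). Both partners of the long-lived IGF-1 complex, Igfals and Igfbp3, were thus lower in sepsis in each anesthetic. The 6 endothelial markers found summed to 157.9 to 198.4 CPM in isoflurane control and 109.4 to 127.6 in Isoflurane-Sepsis. Their sums were 184.3 to 224.3 in propofol control and 152.4 to 159.8 in Propofol-Sepsis. Of these markers 4 fell and 0 rose under isoflurane, and 2 fell and 1 rose under propofol. The part of cell composition in the Igfbp3 result was not tested. Igfbp3 and Igfbp1 are neighboring genes in RefSeq's GRCr8 annotation, and they moved in opposite directions. Igf2r, which clears IGF-2, fell by 0.25 and 0.28 on the log2 scale under isoflurane and propofol (edgeR, adjusted p = 0.0299 and 0.0116), and the isoflurane call was lost without library 1, 2, 5, 6 or 8 (adjusted p up to 0.0887). Igfbp4 rose by 0.14 under propofol at the edge of the threshold (edgeR, adjusted p = 0.0495), and this call was lost without any 1 of the 8 libraries (adjusted p up to 0.143). The rises under isoflurane were Igf1r, the IGF-1 receptor, by 1.14 and Stc1, an inhibitor of IGF-releasing proteases, by 3.15 on the log2 scale, both at low levels. Igf1r rose by 0.92 under propofol too. Stc1 was not tested under propofol, where its counts were too low. It stood there at 0.163 ± 0.0619 CPM in control and 0.924 ± 0.877 in sepsis (SD, n = 4). Igf1r and Stc1 were named after their values were seen.

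Growth hormone receptor signaling and its inhibitors gave 9 rises and 2 falls among 19 genes under isoflurane (median log2 difference 0.18) and again 9 and 2 under propofol (median 0.23). Jak2, the kinase bound to the receptor, rose from 27.01 ± 1.22 to 75.8 ± 8.88 CPM under isoflurane (log2 difference 1.505, edgeR adjusted p = 1.75e-05). Under propofol Jak2 rose from 18.5 ± 2.38 to 62.3 ± 7.46 CPM (log2 difference 1.76, edgeR adjusted p = 8.56e-06). Of the inhibitors, Ptpn1, a phosphatase that acts on JAK2 and the insulin receptor, rose by 1.09 under isoflurane and 1.71 under propofol, and the responses differed by -0.63 (edgeR interaction, adjusted p = 0.0403). Socs3, the SOCS gene of IL-6 signaling, rose by 1.17 and 0.76, and the adaptor Sh2b2 by 1.23 and 0.70, of which the last was lost without library 13 or 16 (edgeR, adjusted p = 0.0594 and 0.0637). The phosphatase Ptpn6 (-0.07 and 0.02 under isoflurane and propofol), Socs4 (0.18 and 0.30) and Socs6 (0.12 and 0.07) were without a call, and are named after their values were seen. Jak1, a kinase of cytokine receptors, rose by 0.24 under isoflurane (edgeR, adjusted p = 0.0339) and fell by 0.23 under propofol (edgeR, adjusted p = 0.0110), a difference of 0.46 between the responses (edgeR interaction, adjusted p = 0.0220).

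Genes of insulin and IGF receptor signaling gave 9 rises and 3 falls among 28 under isoflurane (median log2 difference 0.22) and 5 and 3 among 29 under propofol (median 0.07). Pik3ca, a catalytic subunit of PI3-kinase, rose by 1.53 and 1.25 on the log2 scale, and the transcription factor Foxo3 by 1.53 and 0.81, of which the last was lost with all 16 libraries in 1 fit (edgeR, adjusted p = 0.0529). Grb14, an inhibitor of the insulin receptor, fell by 0.78 and 1.14. Pik3r1 and Grb10, the regulatory subunit and an adaptor, rose under isoflurane by 1.09 and 0.82, and were at -0.27 and 0.23 under propofol, without a call. Trib3, an inhibitor of AKT, fell by 1.25 under propofol (edgeR, adjusted p = 0.000758) and was at 0.26 under isoflurane, without a call, and the responses differed by 1.49 (edgeR interaction, adjusted p = 0.0448).

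Targets of FOXO1 and fasting gave 8 rises and 2 falls among 16 genes under isoflurane (median log2 difference 0.78) and 8 and 1 under propofol (median 0.59). Fbxo32, a ubiquitin ligase of the FOXO program, rose by 2.99 and 1.72 and the cell cycle inhibitor Cdkn1a by 2.19 and 1.47 on the log2 scale. Cited2 rose by 1.47, 0.88 without library 3, and by 1.07, and the repressor Bcl6 by 1.27 and 1.22. The gluconeogenic genes did not move as a block. G6pc, the last enzyme of glucose release, fell by 1.59 under isoflurane (edgeR, adjusted p = 0.0167) and was at -0.91 under propofol, without a call. Pck1, another gluconeogenic enzyme, rose by 1.11 under propofol (edgeR, adjusted p = 0.00558) and was at 0.78 under isoflurane, without a call. Ppargc1a was at 0.78 under isoflurane and 1.18 under propofol, without a call. Pck1 and Ppargc1a were named after their values were seen. Tat, a fasting- and glucocorticoid-induced transaminase, rose by 1.31 under propofol (edgeR, adjusted p = 0.00869), where control was at 988 ± 430 CPM and the other 3 groups had means of 2424, 2642 and 2442.

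Genes that growth hormone patterns in rat liver, or that differ between the sexes, gave 3 rises and 8 falls among 19 under isoflurane (median log2 difference -0.58) and 2 and 9 among 20 under propofol (median -0.38). Sult2a1, a sulfotransferase of steroids, fell by 2.26 and 1.81 on the log2 scale and Hsd3b5, a steroid dehydrogenase, by 1.14 and 0.60. Among the cytochromes P450, Cyp2c7 fell by 0.95 in both and Cyp2c12 by 0.93 under propofol, a call lost with all 16 libraries in 1 fit (edgeR, adjusted p = 0.0693). Cyp2c12 was at 0.69 under isoflurane, without a call (edgeR, adjusted p = 0.226). Cyp2c11, named after its values were seen, fell by 1.01 and 0.88 (edgeR, adjusted p = 0.0165 and 0.000611). Hsd3b5, Sult2a1 and the Cyp2c genes have near-identical relatives, so their counts are uncertain. Cux2, a repressor that is female-biased in rat liver, rose from 8.16 ± 2.62 to 44.9 ± 34.1 CPM under isoflurane (log2 difference 2.47, edgeR adjusted p = 0.00413), and its difference under propofol was 0.13, without a call. The Cux2 responses differed by 2.33 (edgeR interaction, adjusted p = 0.0403). Without library 4 the log2 difference under isoflurane was 1.82 and that between the responses 1.67, both still called. The livers were those of males. The sex bias of the other genes named here was not set out, so no sex pattern is read from them.

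Transcription factors known to act on liver promoters of the axis gave 8 rises and 3 falls among 12 under isoflurane (median log2 difference 0.74) and 3 and 3 under propofol (median 0.13). Hnf4a, a central factor of hepatocyte identity, fell by 1.06 and 0.73 on the log2 scale. Cebpd, an acute-phase regulator, rose by 1.59 and 1.93 and Foxa1 by 0.75 and 0.93. Cebpb rose by 1.501 and 0.59, and the isoflurane rise was 1.03 at its lowest with 1 library left out. Foxa2 rose by 1.18 under isoflurane and was at 0.16 under propofol, without a call. Cebpa rose by 1.17 under isoflurane, was at -0.07 under propofol, without a call, and its responses differed by 1.22 (edgeR interaction, adjusted p = 0.0366). The interaction calls of these other axis genes were weak ones. With 1 library left out, the call of Cebpa was lost for 10 of the 16 libraries (5 to 9 and 11 to 15), that of Cux2 for 11 (3, 5 to 9 and 11 to 15) and that of Ptpn1 for 10 (3, 5, 6, 8, 9, 11, 12, 14, 15 and 16). The call of Trib3 was lost for 13 (2, 3 and 5 to 15) and that of Jak1 for 2 (6 and 12), and the adjusted p was at most 0.0917 in these fits (edgeR). The calls of Cux2 and Trib3 were also lost with limma-voom, that of Trib3 with thinned counts, and those of Ptpn1 and Trib3 without a limit on low counts.

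**Figure D5:**
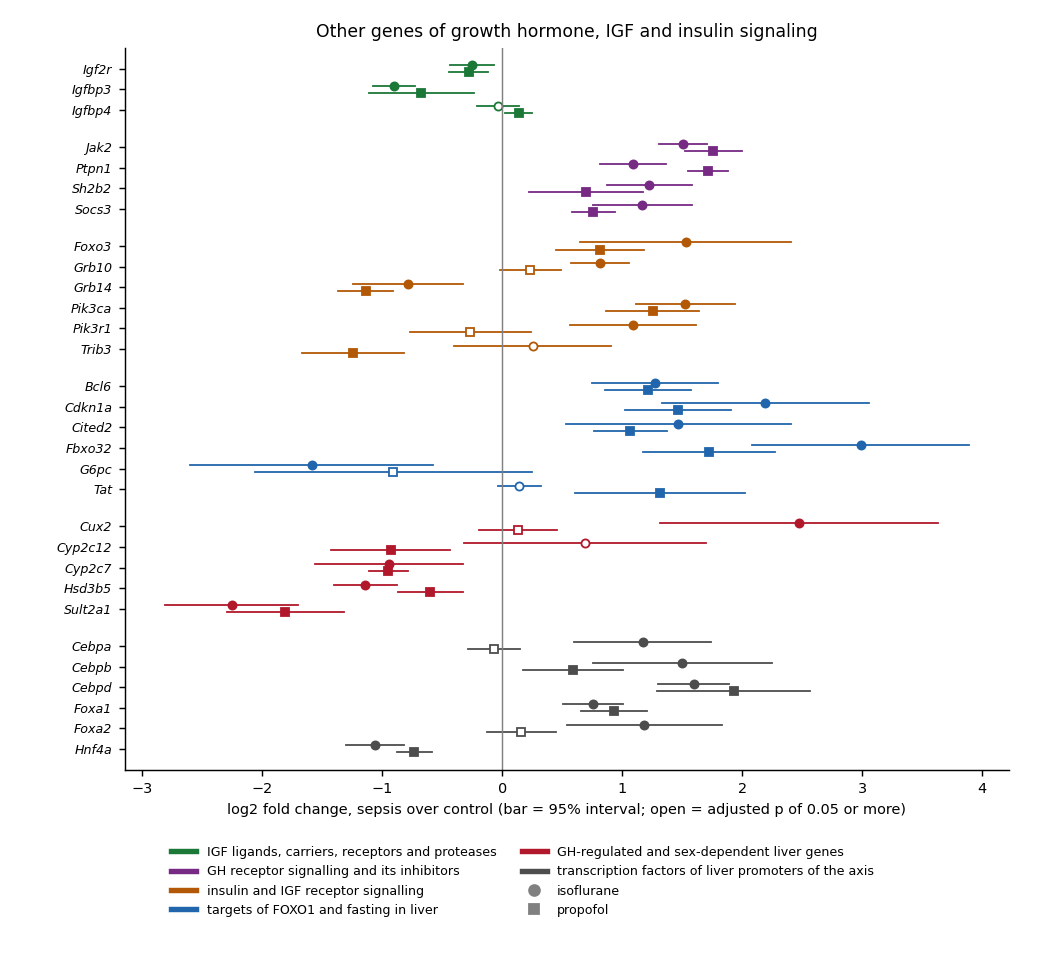
Log2 fold change of sepsis over control for the named genes of the 6 lists, with 95% intervals (edgeR, 4 libraries against 4), circles for isoflurane, squares for propofol, and open symbols where the adjusted p was 0.05 or more. Jak2, Ptpn1, Socs3, Pik3ca, Fbxo32 and Cebpd lay above 0 and Igfbp3, Grb14, Sult2a1 and Hnf4a below 0 under both anesthetics.

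Profiles over the 16 libraries were compared for the 7 genes whose group means spanned more than 1 on the log2 scale, by the root mean square difference of log2 CPM after each gene's own mean was taken away. The genes nearest to Socs2 were Spi1, Ptprc and Srgn (0.21, 0.22 and 0.22, where the median over 8892 genes was 0.65), which are best known from leukocytes. Nearest to Cish were Steap2, Ptpn1 and Prex1 (0.31 to 0.32, median 0.81), of which Ptpn1 is itself an inhibitor of the pathway. Nearest to Igfals were Polg2, Eci1 and Ech1 (0.29 to 0.38, median 1.11), a subunit of the mitochondrial DNA polymerase and a pair of enzymes of fatty acid oxidation. Nearest to Igfbp1 were Insc, Zfyve27 and Gadd45b (0.45 to 0.53, median 1.68), to Igfbp2 Ccdc64, Asl and Tagln (0.39 to 0.46, median 0.86), to Irs1 Fam134b, Pcdh18 and Emd (0.18 to 0.21, median 0.70), and to Irs2 Slc1a4, Fosl2 and Slc25a29 (0.24 to 0.30, median 1.22). These are descriptions over libraries that share groups and pools.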

How the data were processed

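Liver RNA of 16 pools of 3 rats was sequenced. For each pool the authors deposited counts, the whole number of reads per gene symbol, without normalization. The submitters' processing notes name STAR and the rat build rn5, and the counting program is not given in the sources used here. Entries for reads outside genes (21.61% to 25.39%) and for ambiguous reads (1.074% to 1.351%) were left out. Of the symbols, 14175 of 17055 were found in RefSeq's GRCr8 table. No transcript lengths were used, so levels are not compared between genes.

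Groups were taken from the sample labels. Counts of libraries of a group differed by a chi-square per degree of freedom of 3.351 or more, so none was counted as a repeat. Tests used edgeR 4.0.16 (quasi-likelihood, TMM, low counts removed by filterByExpr at a minimum of 10 and a total of at least 15) in R 4.3.3, on the groups compared, or on all 16 libraries for the interaction of anesthetic and sepsis (isoflurane minus propofol). P-values were adjusted over all genes tested and called below 0.05. The main edgeR fit of each comparison was tested on simulated data, and the alternative fits were not. Log2 CPM used a prior count of 2. Alternative tests were DESeq2 1.42.0, which the study used, and limma-voom (limma 3.58.1). Alternative scaling used RLE size factors or library totals alone. Other settings dropped the low-count limit, kept genes with a mean CPM of 1 or more, thinned counts to the smallest library, fitted all groups jointly, called below 0.01, or omitted single libraries. The pools are the replicates, and p-values measure the spread between pools.

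Named genes were all 10 members, in each list and sepsis comparison up to 4 called genes with the largest change at a mean log2 CPM of at least 1, called list genes in the interaction, and the 3 genes most alike each member. 1 gene under this rule is not reported here by name and stays in the counts. Members and lists were chosen with earlier results of these data known.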

Additional observations from a re-analysis of the deposited data

Results flagged for a closer look

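Of 40 sets of 4 libraries (10 genes in 4 groups), 3 held a library set apart from the other 3 by Dixon's criterion, and chance sets apart about 1 in 20. Socs2 in library 16 (propofol control) was the lowest of its group at 26.9 CPM, where the others lay between 43.1 and 45.4. Igf1 in library 5 (isoflurane control) was lowest at 493 CPM, where the others lay between 507 and 509, so that the gap was small in absolute terms. Igfbp2 in library 9 (Propofol-Sepsis) was lowest at 4.94 CPM, where the others lay between 9.10 and 9.80. The response of Socs2 to sepsis differed between the anesthetics by 1.10 on the log2 scale in the interaction test of edgeR. Without library 16 this difference was still called, but the call was lost when any 1 of libraries 3, 5 to 9 or 11 to 15 was left out.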

How the results depend on the processing

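No paired analysis was possible because the labels number the libraries from 1 to 16 and no group shares a number with another. Under isoflurane 5 to 7 of the 10 genes were called over all alternatives, under propofol 5 to 6, and between the controls 6 to 7. In the interaction 1 gene was called, 0 with limma-voom, 0 at an adjusted p below 0.01, and 0 to 1 with a library left out. In septic liver 4 genes differed between the anesthetics, 0 at an adjusted p below 0.01 and 1 to 5 with a library left out. Estimates that changed sign were all uncalled. With library totals alone these were Stat5b between the controls (-0.0113) and, in septic liver, Ghr (-0.0515), Stat5b (-0.12) and Igf1 (-0.0349). With a library left out they were the interactions of Igfals (-0.20 to 0.31) and Cish (-0.0166 to 0.35) and, in septic liver, Ghr (-0.0314 to 0.24) and Stat5b (-0.0414 to 0.0633). The cause was not tested.

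Library totals alone moved the median log2 difference of all genes to -0.15 between the controls and -0.16 in septic liver. Calls higher and lower under isoflurane went from 2225 and 2243 to 1139 and 3824 in controls, and from 1092 and 890 to 594 and 2177 in septic liver. In the sepsis comparisons they went from 2659 and 2524 to 2241 and 2965 under isoflurane, and from 2107 and 2246 to 1675 and 2700 under propofol. Over all genes, the interaction called 289, but 847 with DESeq2, 168 without a limit on low counts and 9 at an adjusted p below 0.01. With 1 library left out it called 54 to 1615, over 1.5 times more without library 1 and fewer by that factor without library 3, 5 to 9 or 11 to 15. With all 16 libraries in 1 fit the controls gave 2793 calls in place of 4468 and septic liver 4099 in place of 1982. At an adjusted p below 0.01 the counts were 3200 and 2628 in sepsis under isoflurane and propofol, 2815 between the controls and 121 in septic liver, and none of the latter was among the 10 genes.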

Other observations

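The lists of the axis also differed between the control groups of the anesthetics. Of 16 targets of FOXO1 and fasting, 10 were higher and 2 lower under isoflurane in control liver, with a median log2 difference of 0.48 beside -0.00049 over all genes, and 4 were higher and 1 lower in septic liver. Over all genes tested, 21.6% were higher and 21.7% lower in control liver, and 10.6% and 8.66% in septic liver. Pck1, the enzyme that commits to gluconeogenesis, was higher by 1.44 on the log2 scale in isoflurane control and G6pc by 2.06 (edgeR, adjusted p = 7.89e-05 and 0.000743). Their coactivator Ppargc1a was higher by 1.80 (edgeR, adjusted p = 0.000133). Prlr, the prolactin receptor, a relative of the growth hormone receptor, was higher by 2.30 in isoflurane control (edgeR, adjusted p = 0.000111). Cux2 and Trib3 were lower by a log2 difference of -1.57 and -1.14 in isoflurane control (edgeR, adjusted p = 0.000208 and 0.000401). These genes were chosen after their values were seen.

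Of the other lists in control liver, the IGF carriers and receptors gave 2 higher and 0 lower of 8 under isoflurane, growth hormone receptor signaling 9 and 2 of 18, insulin signaling 7 and 6 of 29, the growth hormone and sex-dependent genes 7 and 5 of 20, and the transcription factors 3 and 4 of 12. In septic liver the counts in that order were 0 and 0 of 9, 5 and 2 of 19, 1 and 1 of 28, 2 and 3 of 19, and 4 and 1 of 12. Beside the shares of all genes given above, these counts are a description, and nothing particular to a list is read from them.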
